A study of Sus scrofa with 2 samples.

Results

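SINE1 antisense reads are small RNAs whose letters run opposite to the sense strand of SINE1, the tRNA-derived retroposon of pigs that is also called PRE-1. Sequences of 18 to 32 nt were taken when they matched the antisense strand of a SINE1 consensus with at most 1 mismatch, and better than the sense strand. Of the 1166705 distinct sequences in the libraries, 1036 met this rule, 834 of them in the Dicer KD library and 432 in the control library, with 230 in both. They held 12287 of 11982925 reads in the Dicer KD library and 10668 of 11836160 reads in the control library. That is 0.103% and 0.0901% of the reads (exact binomial intervals 0.101 to 0.104% in Dicer KD and 0.0884 to 0.0919% in control). Only 169 of the 1036 sequences matched exactly and 867 had 1 mismatch. No sequence matched both strands equally well.

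The libraries came from total RNA of pig oocytes at metaphase II, after 42 h of maturation in vitro. In the Dicer KD group, siRNA against Dicer had been given at the germinal vesicle stage, before maturation, and the control group is labelled as control, without saying whether it was given a control siRNA. Each group is 1 library. Groups could therefore not be tested against each other, and every ratio below compares a pair of libraries. The 95% intervals given take in counting error alone, since PCR copies of 1 molecule cannot be told apart here. Dicer mRNA is not measured by small RNA reads, so the knockdown itself was not checked.

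Antisense RNA of a retroposon can pair with its sense transcript. Dicer, a ribonuclease, cuts such double-stranded RNA into short duplexes whose strands have 2-nt overhangs at their 3′ ends, and these become endogenous siRNAs. Piwi proteins of germ cells carry the piRNAs, which are often longer and often start with T (U in the RNA). Length alone does not tell these kinds of RNA apart here. In the ping-pong cycle 1 piRNA guides the cut that makes the 5′ end of another on the opposite strand, so that their 5′ ends overlap by 10 nt, and a T at base 1 of one stands across from an A at base 10 of its partner.

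Most of the antisense reads began at a single place, position 191 of the consensus, counted from 1 at the 5′ end of the sense strand. The reads that carry this end are shown first, because they make up most of the set. Capitals mark the first 10 bases, and G8A means that the antisense consensus has G and the read A at base 8, counted from 1 at the 5′ end of the read. The first line is the consensus itself from position 191 down to 165.

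Antisense consensus, 27 nt: TCGAATCGGAgctgtagccaccggcct
G8A form, 19 nt: TCGAATCAGAgctgtagcc
G8A form, 22 nt: TCGAATCAGAgctgtagccacc
G8A form, 24 nt: TCGAATCAGAgctgtagccaccgg
G8A form, 27 nt: TCGAATCAGAgctgtagccaccggcct
A20C form, 21 nt: TCGAATCGGAgctgtagcccc

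Facing them are sense reads whose 5′ end lies at position 182. They are shown because their first 10 bases, in capitals, are the reverse complement of the first 10 bases of antisense reads at position 191. The first pairs with the G8A form. The other 2 each differ from the consensus at 2 positions and so stand outside the rule of 1 mismatch. They pair with antisense heads that carry C2T or G3A beside G8A.

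Sense read for G8A, 20 nt: TCTGATTCGAcccctagcct
Sense read for C2T and G8A, 20 nt: TCTGATTCAAcccctagcct
Sense read for G3A and G8A, 20 nt: TCTGATTTGAcccctagcct

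The 5′ end at position 191 held 10376 antisense reads in the Dicer KD library and 9942 in the control library, which was 84.4% and 93.2% of all antisense reads there. Its level was 866 RPM (reads of the item scaled to equal library size) in Dicer KD and 840 RPM in control, a ratio of Dicer KD to control of 1.03 (interval 1.003 to 1.06). The reads at this end made up 184 distinct sequences. All other 5′ ends together had 1911 reads in Dicer KD and 726 in control, on 852 distinct sequences, at 159 RPM and 61.3 RPM, a ratio of 2.60 (2.39 to 2.84). The reads at position 191 were thus nearly equal between the libraries, and 79.1% of the net antisense difference of 124 RPM lay at the other 5′ ends. That share is a net over the length classes, which differed and are given below. The split into position 191 and the rest was made after the values had been seen.

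By length class, the totals were modestly higher in the Dicer KD library. Reads of 18 to 20 nt numbered 2399 in Dicer KD and 2115 in control, a ratio of 1.12 (1.06 to 1.19). The size that Dicer makes, 21 to 23 nt, counted 3176 in Dicer KD and 2618 in control, a ratio of 1.20 (1.14 to 1.26). The class of 24 to 32 nt, a length range that holds piRNAs, counted 6712 in Dicer KD and 5935 in control, a ratio of 1.12 (1.08 to 1.16). At position 191 alone the ratios of these classes were 1.01 (0.951 to 1.08), 0.958 (0.903 to 1.02) and 1.07 (1.03 to 1.11). At all other 5′ ends they were 2.33 (1.95 to 2.80), 2.91 (2.56 to 3.31) and 2.37 (2.03 to 2.77). In RPM, reads of 24 to 32 nt at 191 were at 514 in Dicer KD and 482 in control, and elsewhere at 46.4 and 19.6. For this class the larger part of the RPM difference thus lay at 191. Reads of 21 to 23 nt at 191 were at 186 RPM in Dicer KD and 194 RPM in control. In no class did the interval of the ratio at the other ends overlap that at 191. This is not a test, since the intervals hold counting error alone and the split was made after the values had been seen. In the whole libraries these length classes had ratios of 1.05, 0.948 and 1.03.

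Reads that matched the consensus exactly had larger ratios in the classes of 21 to 23 and 24 to 32 nt, and not in that of 18 to 20 nt. The consensus was built from the distinct sequences of both libraries, and the antisense set had 834 of them in Dicer KD and 432 in control. What counts as exact was therefore set in part by the reads compared. Exact reads of 18 to 20 nt numbered 349 in Dicer KD and 323 in control, a ratio of 1.07 (0.915 to 1.25). Those of 24 to 32 nt numbered 327 in Dicer KD and 174 in control, a ratio of 1.86 (1.54 to 2.24). Exact reads of 21 to 23 nt numbered 392 in Dicer KD and 117 in control, a ratio of 3.31 (2.69 to 4.10). At position 191 they were 55 in Dicer KD and 71 in control, and elsewhere 337 in Dicer KD and 46 in control, a ratio of 7.24 (5.31 to 10.1). Elsewhere exact reads of 18 to 20 nt had a ratio of 2.61 (1.76 to 3.94) and those of 24 to 32 nt one of 4.01 (2.90 to 5.65). Antisense reads were 61.4% of all SINE1 reads in Dicer KD and 62.9% in control, since sense reads were higher too, at 7729 in Dicer KD and 6291 in control.

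The reads at position 191 shared 1 letter change and 4 lengths. G8A, which falls on position 184 of the consensus, stood in 7787 reads in Dicer KD and 7578 in control, 75.0% and 76.2% of the reads at this end. Under the rule of 1 mismatch these reads carry no other change, so the share depends on the rule. Over the distinct SINE1 sequences of both strands, position 184 held the consensus base in 66.6% and the base of the G8A form in 29.9%. Reads with no change numbered 445 in Dicer KD and 485 in control. Reads with C2T numbered 291 in Dicer KD and 252 in control, and reads with T15C 274 in Dicer KD and 243 in control. These reads can come from many SINE1 copies in the genome, and which copies carry each change was not analysed here.

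Lengths of 19, 22, 24 and 27 nt made up 83.7% of the reads at 191 in Dicer KD and 86.8% in control. The 19-nt reads numbered 1489 in each library. The 22-nt reads were lower in Dicer KD, at 1375 against 1698 in control, a ratio of 0.800 (0.744 to 0.859). The 24-nt reads numbered 4699 in Dicer KD and 4215 in control, a ratio of 1.10 (1.06 to 1.15). The 27-nt reads numbered 1126 in Dicer KD and 1232 in control, or 0.903 times as many (0.832 to 0.980). Within the class of Dicer size, the 21-nt reads went the other way from those of 22 nt, with 648 in Dicer KD and 444 in control, a ratio of 1.44 (1.28 to 1.63). Reads of 20 nt numbered 460 in Dicer KD and 420 in control, and those of 26 nt 263 in Dicer KD and 192 in control. Between the 24-nt and 27-nt reads, those of 25 nt numbered 21 in Dicer KD and 23 in control.

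The most abundant antisense sequence was the G8A form of 24 nt shown above, with 4570 reads in Dicer KD and 4117 in control. It alone held 37.2% of all antisense reads in Dicer KD and 38.6% in control, and its ratio was 1.10 (1.05 to 1.14). The G8A form of 22 nt had 1115 reads in Dicer KD and 1411 in control, a ratio of 0.781 (0.721 to 0.845). The form 1 nt longer, of 23 nt, had 193 reads in Dicer KD and 144 in control, a ratio of 1.32 (1.06 to 1.65). The G8A form of 19 nt had 742 reads in Dicer KD and 723 in control, and that of 27 nt 767 in Dicer KD and 861 in control. The form of 26 nt had 252 reads in Dicer KD and 171 in control, a ratio of 1.46 (1.19 to 1.78). The rarer form of 28 nt had 43 reads in Dicer KD and 23 in control, a ratio of 1.85 (1.09 to 3.21), and that of 20 nt 23 in Dicer KD and 35 in control, a ratio of 0.649 (0.366 to 1.13). The lengths of 1 letter form thus differed in both directions.

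The A20C change was tied to length. It stood in 1007 reads in Dicer KD and 744 in control, a ratio of 1.34 (1.21 to 1.47), nearly all of 20 to 22 nt. Its 21-nt form, shown above, had 542 reads in Dicer KD and 321 in control, a ratio of 1.67 (1.45 to 1.92). Its 20-nt form, in which the changed base is the last one, had 369 reads in Dicer KD and 350 in control, a ratio of 1.04 (0.897 to 1.21). At 24 nt it had 0 reads in Dicer KD and 2 in control.

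Counted by reads, the shorter sequences at 191 were mostly the beginnings of longer ones. Of the 18 to 20 nt reads there, 97.9% in Dicer KD and 87.1% in control were prefixes of an antisense read of 24 to 32 nt in the same library. Of the 21 to 23 nt reads there, 98.8% in Dicer KD and 97.4% in control were such prefixes. Elsewhere the shares were 24.9% and 43.3% in Dicer KD and 16.3% and 34.8% in control, for the shorter and the longer class. Over distinct sequences at 191 the shares were lower, at 62.8% and 83.8% in Dicer KD and 62.2% and 65.9% in control, in the same order. Most reads at 191 therefore share letters, and their counts are not separate observations of the end.

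The 5′ end at 191 faced a matching sense end 10 nt away. Sense reads with 5′ ends that overlap it by 1 to 30 nt numbered 719 in Dicer KD and 615 in control. Of these, 558 in Dicer KD and 523 in control began at position 182, an overlap of exactly 10 nt, which is 77.6% and 85.0%. The next most used overlap had 56 sense reads in Dicer KD, at 1 nt, and 27 in control, at 16 nt. The median over the other overlaps was 2 reads in Dicer KD and 0 in control. Since the reads at 191 start with T, and the sense reads at 182 do too, base 10 of each is an A.

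The sense reads at 182 also varied where the antisense reads vary. Base 3 of these sense reads lies across from base 8 of the antisense reads. It was T, which pairs with the A of G8A, in 62.9% of these sense reads in Dicer KD and 60.6% in control, and C in 37.1% and 39.4%. The antisense reads had A at base 8 in 75.0% in Dicer KD and 76.2% in control, and G in 24.9% and 23.8%. Among the other SINE1 sense reads that cover this position, T stood in 37.6% in Dicer KD, on 32 reads, and in 57.6% in control, on 49 reads. Under the rule of 1 mismatch a read with the T, or with the A across from it, has used its only mismatch. A read with the C or G can carry 1 more. At 182 the T was on 12 distinct sequences and the C on 71. All these shares therefore depend on the rule. A sense read whose first 10 bases were the reverse complement of its own was found in the same library for 99.6% of the antisense reads at 191 in Dicer KD and 99.6% in control. Most reads at 191 share a few such beginnings, so 1 sense read for each already brings this share near 100%. It was counted at 10 nt alone, so nothing is drawn from it. The most abundant sense read at 182 under this rule, the 20-nt one shown for G8A, had 150 reads in Dicer KD and 200 in control, a ratio of 0.741 (0.595 to 0.920).

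With up to 2 mismatches the sense strand at 182 grew far more than the antisense strand at 191. Sense reads there numbered 7369 in Dicer KD and 6821 in control, and antisense reads at 191 numbered 14757 in Dicer KD and 13710 in control. The count by head, the first 10 bases, was added after the values had been seen. The pairing letters were split unevenly between the strands. The G8A head was on 59.4% of these antisense reads in Dicer KD and 61.6% in control, but its complement on 12.8% of the sense reads in Dicer KD and 13.7% in control. The head with C2T and G8A was on 0.454% of the antisense reads in Dicer KD and 0.598% in control, and its complement on 41.5% of the sense reads in Dicer KD and 40.0% in control. The head with G3A and G8A was on 14 antisense reads in Dicer KD and 13 in control, and its complement on 1846 sense reads in Dicer KD and 2017 in control. The head with G3T and G8A was common on both strands, with 1246 antisense and 499 sense reads in Dicer KD and 1034 antisense and 419 sense reads in control. Each library thus held, at the same pair of ends, heads that were mostly antisense and heads that were mostly sense. Of the 89 heads seen, 31 occurred on both strands. A sense read at 182 with the complementary head was in the same library for 98.8% of these antisense reads in Dicer KD and 98.7% in control. The 20-nt sense read for C2T and G8A had 885 reads in Dicer KD and 1175 in control, a ratio of 0.744 (0.681 to 0.812), and that for G3A and G8A 1307 in Dicer KD and 1550 in control, a ratio of 0.833 (0.773 to 0.897). The 22-nt and 21-nt forms had ratios above 1, with an interval that included 1 for G3A and G8A. The 22-nt sense read for C2T and G8A had 1137 reads in Dicer KD and 920 in control, a ratio of 1.22 (1.12 to 1.33). The 21-nt reads had ratios of 1.25 (1.02 to 1.53) for C2T and G8A and 1.19 (0.980 to 1.44) for G3A and G8A.

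First bases differed sharply between the dominant end and the rest. Of all antisense reads, T came first in 86.2% of the 18 to 20 nt reads in Dicer KD and 94.9% in control. For 21 to 23 nt it was 77.6% in Dicer KD and 92.6% in control, and for 24 to 32 nt 93.6% in Dicer KD and 97.6% in control. At other ends than 191, T came first in 18.5%, 25.1% and 22.3% of the 3 classes in Dicer KD and in 38.4%, 39.8% and 38.4% in control. The antisense consensus itself holds 14.3% T and 22.9% A, so by reads T was above its share in the letters at the other ends in both libraries. It was far below its share in the whole libraries. In those, T came first in 65.4%, 86.0% and 84.8% of the 3 classes in Dicer KD and in 69.6%, 87.6% and 85.8% in control. In Dicer KD, A was the more frequent first base at the other ends, with 33.3%, 42.6% and 39.0% of the 3 classes, against 12.2%, 26.4% and 33.6% in control.

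Base 10 followed the same division. It was A in 87.9%, 73.5% and 93.1% of all antisense reads of the 3 classes in Dicer KD and in 94.2%, 89.2% and 96.5% in control. Away from 191 it was A in 28.3%, 11.4% and 16.7% in Dicer KD and in 29.1%, 13.0% and 12.5% in control. The high shares over all reads are therefore those of 1 end. In the whole libraries, A stood at base 10 of 49.9% of the 21 to 23 nt reads in Dicer KD and 51.5% in control. In the class of 24 to 32 nt it stood there in 61.5% of the reads in Dicer KD and 61.1% in control.

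The reads that began elsewhere were spread over the element, and the Dicer KD library used more places. They began at 128 positions in Dicer KD and at 62 in control, with 53 in common, and comprised 698 distinct sequences in Dicer KD and 285 in control. The most used end after 191 among the 18 to 20 nt reads was position 19, with 29 reads in Dicer KD and 24 in control, then position 102, with 18 in Dicer KD and 23 in control. Among the 21 to 23 nt reads it was position 187, with 162 reads in Dicer KD and 35 in control, a ratio of 4.57 (3.16 to 6.79), then position 188, with 101 in Dicer KD and 27 in control, a ratio of 3.69 (2.40 to 5.88). Among the 24 to 32 nt reads it was position 188, with 63 reads in Dicer KD and 73 in control, then position 44, with 55 in Dicer KD and 49 in control. Position 188 was thus higher in Dicer KD for reads of Dicer size, and its interval for longer reads, with a ratio of 0.852 (0.599 to 1.21), included 1.

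By segment of the element, the ratio was above 2 in all 5 and largest at the far end. Ends at positions 1 to 50 had 568 reads in Dicer KD and 278 in control, a ratio of 2.02 (1.75 to 2.34). Ends at 51 to 100 had 368 in Dicer KD and 94 in control, a ratio of 3.87 (3.08 to 4.90), and ends at 101 to 150 had 184 in Dicer KD and 68 in control, a ratio of 2.67 (2.01 to 3.58). Ends at 151 to 190 had 543 in Dicer KD and 264 in control, a ratio of 2.03 (1.75 to 2.36). Ends at 192 to 223, on the other side of the dominant end, had 248 in Dicer KD and 22 in control, a ratio of 11.1 (7.19 to 18.1). Over all reads away from 191, the most frequent length was 22 nt in Dicer KD and 21 nt in control. There were 387 reads of 22 nt in Dicer KD and 104 in control, and 258 reads of 21 nt in Dicer KD and 142 in control. Together 22 and 23 nt made up 36.2% of the reads away from 191 in Dicer KD and 24.8% in control.

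Away from 191 most sequences were rare and were read in 1 library only. The 131 sequences seen in both libraries had 631 reads in Dicer KD and 504 in control. A further 567 sequences were in Dicer KD only, with 1280 reads, of which 300 sequences had a single read and the highest had 31 reads. In control only there were 154 sequences with 222 reads, of which 106 had a single read and the highest had 4. Which sequences fall in these sets depends on the counts compared, so no ratio is drawn from them. The 5 most abundant sequences of Dicer KD held 10.1% of its reads away from 191.

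The ratio also moved with base composition. Away from 191, reads that started with T numbered 437 in Dicer KD and 283 in control, a ratio of 1.53 (1.31 to 1.78), and those that started with A 756 in Dicer KD and 184 in control, a ratio of 4.06 with a lower bound of 3.45. Reads of at least 60% G and C had a ratio of 3.62 and the others one of 1.89. In the whole libraries, reads of 18 to 32 nt with at least 60% G and C had a ratio of 1.04, reads starting with T one of 0.984 and all others one of 1.10. In the class of 18 to 20 nt the whole-library ratios were larger, at 1.43 (1.41 to 1.45) for reads of at least 60% G and C and 1.19 for reads not starting with T. Sense SINE1 reads differed by first base too, with a ratio of 0.998 (0.960 to 1.04) for those starting with T and 2.001 (1.87 to 2.14) for the others. Among sense reads of 18 to 20 nt that did not start with T there were 943 in Dicer KD and 136 in control, a ratio of 6.85 (5.72 to 8.26). The part of base composition in the antisense result was not tested.

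Among the antisense sequences with at least 20 reads, summed over the libraries, the 5 with the largest ratios shared 1 small stretch of the element. They reached that minimum only or almost only through their Dicer KD reads. They also overlap and share most of their letters, so they are not separate observations of this stretch. Below that minimum other stretches had reads in Dicer KD and 0 in control too, such as positions 1 to 25, with 19 reads in Dicer KD, and positions 29 to 53, with 17. The 5 sequences and 2 others are shown here. Capitals mark the base that differs from the antisense consensus, with none where the match is exact. The first 5 lie next to the dominant end, with 5′ ends at 187 or 188 and 3′ ends at 166 or 167, inside the stretch that the 27-nt consensus form spans. The sixth is the most abundant antisense sequence away from 191 and covers positions 15 to 37. The seventh had the lowest ratio and covers positions 31 to 51.

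C18T, from 187: atcggagctgtagccacTggcc
Exact, 23 nt from 188: aatcggagctgtagccaccggcc
A16G, from 187: atcggagctgtagccGccggcc
Exact, 22 nt from 187: atcggagctgtagccaccggcc
Exact, 21 nt from 187: atcggagctgtagccaccggc
Exact, 23 nt from 37: tcggattcgttaaccactgcgcc
T21A, from 51: ctcatggttcctagtcggatA

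The exact 22-nt read from 187 had 56 reads in Dicer KD and 1 in control, a ratio of 55.3 with the wide counting interval of 9.53 to 2223. The C18T form had 31 reads in Dicer KD and 0 in control. Its ratio was 10.2 when the control is set to its floor, the 3 reads or 0.253 RPM that a count of 0 allows. The lower bound of its counting interval was 7.82. The A16G form and the exact 23-nt read from 188 had 24 reads each in Dicer KD and 0 in control. Against the same floor their ratio was 7.90, and the lower bound of the counting interval was 5.95. The exact 21-nt read had 19 reads in Dicer KD and 1 in control, a ratio of 18.8 (2.98 to 780). The exact read from position 37 had 57 reads in Dicer KD and 4 in control, a ratio of 14.1 (5.21 to 53.4). The 5 reads from 187 and 188 carry G at the base where the reads at 191 mostly carry the A of G8A. With that A in place of G, the 3 exact reads had few reads in either library. The counterpart of the 22-nt read from 187 had 3 reads in Dicer KD and 11 in control, that of the 21-nt read 0 in Dicer KD and 3 in control, and that of the 23-nt read from 188 had 9 in Dicer KD and 12 in control. These counts are low, so no direction is drawn from them. An exact 29-nt read from 188, which also carries the G, had 11 reads in Dicer KD and 19 in control, a ratio of 0.572 (0.246 to 1.26).

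In the other direction, the T21A read from position 51 had 5 reads in Dicer KD and 15 in control, a ratio of 0.329 (0.0936 to 0.953). The remaining 4 of the 5 lowest began at 191 with C7T, A16T, A20G or G3T. The G3T form of 19 nt had the most reads of these, with 29 in Dicer KD and 65 in control, a ratio of 0.441 (0.274 to 0.693). A minimum of 20 reads, summed over the libraries, left 61 antisense sequences. Of these, 7 were at least 2-fold higher in Dicer KD and 5 at least 2-fold lower. Over all 51766 sequences of 18 to 32 nt with that many reads, 10.3% were at least 2-fold higher and 11.8% at least 2-fold lower, so the 11.5% and 8.20% of the antisense set were near the background. With at least 10 reads, 30 of 107 antisense sequences were higher (28.0%) and 11 lower (10.3%), and over all 92137 sequences 15.1% were higher and 17.0% lower. With at least 50 reads, 2 of 26 were higher and 1 lower, and over all 24271 sequences 7.16% were higher and 7.34% lower. The share that was higher was thus above the background at the minimum of 10 reads, and near it at 20 and 50. Of the 43 such sequences at 191, 1 was higher and 4 were lower. Of the 18 elsewhere, 6 were higher and 1 was lower, and the other 834 sequences away from 191 were too rare for this count.

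Away from 191, the 10-nt overlap with sense reads did not stand out by number of pairs. When each pair of ends was weighted by the smaller of its read counts, 10 nt ranked 9 of 30 overlaps in Dicer KD, with 692 pairs against a median of 616 for the others, and 10 of 30 in control, with 250 against 212. The overlaps with most pairs were 20 nt in Dicer KD and 19 nt in control. Counted as the share of antisense reads with any sense read at that place, 10 nt reached 75.6% in Dicer KD against a median of 71.7% at other overlaps, and 87.9% in control against 53.6%. In control this was the highest of the 30 overlaps. Away from 191, 54.2% of the antisense reads in Dicer KD and 55.1% in control had a sense read with the reverse complement of their first 10 bases. This match of letters was counted at 10 nt alone.

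Pairs of equal length with 2-nt 3′ overhangs, the shape that Dicer leaves, were counted for the reads away from 191 over distinct sequences, beside the same pairs at other shifts of up to 8 nt. A partner was taken by its position and length alone, so the letters of the 2 reads need not pair throughout. At 23 nt, 54 of 78 antisense sequences in Dicer KD had such a partner, against a median of 35.5 and a highest value of 46 at other shifts. In control it was 18 of 31 at 23 nt, with a median of 11.5 and a highest value of 20. At 21 nt it was 43 of 96 in Dicer KD, with a median of 26 and a highest of 41, and 31 of 49 in control, with 18 and 33. At 22 nt it was 45 of 112 in Dicer KD and 31 of 49 in control, and in both libraries another shift had more, with 63 in Dicer KD and 32 in control. Over distinct sequences the overhang of 2 nt thus had the highest count of the shifts for 21 and 23 nt in Dicer KD, by 2 and 8 sequences, and for no length in control. Counted by reads this did not hold. In Dicer KD the overhang of 2 nt had 106 reads at 21 nt and 204 at 23 nt, and another shift had 122 and 218. In control it had 101 reads at 21 nt, where the highest other shift had 95, and 36 at 23 nt, where another shift had 52. The reads with the largest ratios were not among those with many partners. The 5 reads from 187 and 188 shown above had no sense partner of this shape in either library, and the exact read from 37 had 1 partner read in Dicer KD and 2 in control. At 191, the G8A form of 22 nt had 2 such partner reads in Dicer KD and 5 in control, beside its own 1115 in Dicer KD and 1411 in control, and the forms of 19, 24 and 27 nt had none.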

How the data were processed

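Total RNA of pig oocytes was made into small RNA libraries by adapter ligation, reverse transcription and PCR, per the labels' protocols. The authors deposited, for each of the 2 libraries, a table of distinct sequences with length and raw read count, with no normalization. Per the submitters' processing notes, Bowtie2 was used. No version, genome build or adapter trimming is given in the sources used here.

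No SINE1 sequence or genome was supplied, so the consensus was built from the deposited reads. A 16-nt SINE1 stretch known from background was extended in both directions by the most supported base. Each base was then set to the majority over distinct sequences within 2 mismatches, in 3 rounds. The result, of 223 nt, lacks the tail of the element, rests on few sequences at its end and has a weak majority at position 90, with 48.8% C and 34.9% G. SINE1 subfamilies were not resolved. The reads therefore shaped the consensus, and a mismatch means a difference from it, not from a genomic copy. The consensus written backwards without complementing it, used as a decoy, had 0 matches.

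Ratios are Dicer KD over control of RPM, the reads of an item scaled to equal library size, with exact conditional intervals. Shares have exact (Clopper-Pearson) binomial intervals. With 11982925 reads in Dicer KD and 11836160 in control, the floor of 3 reads was 0.250 RPM and 0.253 RPM. Matching and intervals were tested on simulated data. Alternatives covered mismatches, rare sequences, distinct sequences, the reads that values are relative to, abundant sequences, second bases of the consensus and read minimums. Named sequences were the 3 most abundant of each length class and the 5 highest and 5 lowest ratios where at least 20 reads were present, and named ends the 3 most used per class. The other sequences, ends and splits named were chosen after their values were seen. The members and lists were chosen with earlier results of these data known. Scripts ran in Python 3.11.15 with scipy 1.17.1, numpy 2.4.6 and pandas 2.3.3.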

Additional observations from a re-analysis of the deposited data

How the results depend on the processing

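No paired analysis was possible because there was 1 library per group. With each alternative the ratios of the length classes are given for 18 to 20, 21 to 23 and 24 to 32 nt in that order. They were 1.21, 1.27 and 1.16 with up to 2 mismatches, 1.87, 1.84 and 2.03 with each distinct sequence counted once, and 1.48, 1.91 and 1.55 without the 5 most abundant antisense sequences. Relative to the SINE1 sense reads of all lengths together they turned to 0.923, 0.987 and 0.921, because that sum was also higher in Dicer KD. The sense reads of the 3 classes had ratios of 1.81, 0.966 (0.909 to 1.03) and 1.22. Those of 21 to 23 nt were thus not higher, and antisense reads were not set against sense reads of their own class. Exact matches gave 1.07, 3.31 and 1.86. Without the most abundant sequence the classes of 21 to 23 and 24 to 32 nt gave 1.69 and 1.16. Settings added after the values were seen gave 2.33, 2.91 and 2.37 without position 191, and 1.02, 1.005 and 1.07 for sequences starting with T. The ratio at 191 was 1.06 with 2 mismatches and fell below 1 for exact matches (0.906), distinct sequences (0.914), relative to sense reads (0.849) and without its most abundant sequence (0.985), so no direction is drawn from it. The ratio elsewhere was 4.77 for exact matches, 2.36 with 2 mismatches, 2.14 relative to sense reads and 1.53 for sequences starting with T. For the other alternatives the cause of a move was not tested.

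T came first in 88.0% of all antisense reads in Dicer KD and 95.8% in control. Exact matches gave 53.6% and 85.7%, 2 mismatches 84.5% and 94.3%, and distinct sequences 34.3% and 60.4%. A stood at base 10 in 87.0% in Dicer KD and 94.3% in control, with 46.0% and 80.9% for exact matches, 83.7% and 91.3% with 2 mismatches, and 32.3% and 44.2% for distinct sequences. Away from 191, a sense read at 10 nt was found for 63.6% in Dicer KD and 47.3% in control with exact matches, and 91.4% and 97.7% with 2 mismatches. The share of sense reads around 191 that lie at 10 nt was, for exact matches, 51.2% in Dicer KD (63 of 123) and 86.9% in control (53 of 61). It was 82.5% in Dicer KD and 95.7% in control with 2 mismatches, and 48.9% and 58.6% for distinct sequences. Sequences past 2-fold numbered 30 higher and 11 lower of 107 with at least 10 reads (28.0% and 10.3%, against 15.1% and 17.0% of all sequences), and 2 higher and 1 lower of 26 with at least 50 (7.69% and 3.85%, against 7.16% and 7.34%). With 1 library per group, counting error alone is known, and sequences under 20 reads were too shallow for single ratios.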
